A study of Mus musculus with 4 samples.

Results

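The genes described here act in the synthesis and handling of coenzyme Q in the corpus of the mouse stomach, and Coq5 is the member with the largest differences between the arrays. They were chosen by symbol, from a list of 10 genes: Pdss1, Coq2, Coq3, Coq4, Coq5, Coq6, Coq7, Coq9, Coq10a and Coq10b. Of these, 9 had a probe set annotated to a single gene, and each of the 9 had exactly 1 such probe set. The expression of Pdss1 was not analysed here, and Pdss1 enters only in the search of promoter sequences. The 9 genes stand among 22180 genes with a single-gene probe set, of which 11090 passed a filter on low values, set at the median of all gene means (5.03 on the log2 scale). All 9 passed that filter, and the lowest of their values on any array was 5.27 (Coq6, KO vehicle).

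RNA came from the gastric corpus, the acid-secreting part of the stomach, of adult mice aged 8 to 10 weeks. Wild-type mice (WT) were of strain C57BL/6. Knockout mice (AmpkKO, here KO) carried Atp4b-cre with Prkaa1fl/fl and Prkaa2fl/fl, so that the α1 and α2 catalytic subunits of AMPK, the AMP-activated protein kinase, were targeted in the cells where the Atp4b promoter drives Cre, the parietal cells. The KO background was mixed, from B6 and FVB, so genotype and strain background cannot be told apart. Mice of both genotypes received daily intraperitoneal injections for 14 days, either of metformin (300 mg/kg) or of saline vehicle. There was 1 array in each of the 4 groups. No difference between 2 arrays therefore has a replicate check, and the sources used here do not say how many animals stood behind each array. The genes were chosen with their values on these arrays known, so all values below are a description and no test is given. A difference is a difference of log2 values, and "2-fold" means an absolute difference of 1 or more.

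Coenzyme Q, or ubiquinone, is a lipid of the inner mitochondrial membrane that takes electrons from complexes I and II and from several dehydrogenases and hands them to complex III. It is built from a benzene ring and a long isoprenoid tail that comes from the mevalonate pathway, the pathway that also leads to cholesterol. The ring is joined to the tail and then modified by enzymes that sit together in the inner membrane. Parietal cells are among the cells richest in mitochondria, since the proton pump that acidifies the stomach runs on ATP.

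Promoter sequences in the RefSeq table of build GRCm38.p6 were matched by symbol for 9 of the 10 genes, with 11 start sites, and Coq5 was the gene without an entry. The 250 bases before each start were searched on both strands for 5 motifs of factors known to act on mitochondrial, metabolic or clock-controlled genes. TCAAGGTCA (estrogen-related receptors), the NRF1 site, CCGGAAGT (ETS factors such as GABP) and TGACGTCA (CREB family) had no match in any of the 11 windows, and stood in 0.387%, 0.782%, 2.88% and 1.55% of the 32851 windows of the table. The E-box CACGTG, a sequence read by basic helix-loop-helix factors including the clock activators, stood in 6.02% of all windows and in 2 of the 11, before Coq4 and before Coq10b. Both stretches are shown since they carry the only matches among these genes, at chr2:29787397-29787482 (plus strand) for Coq4 and chr1:55052652-55052737 (plus strand) for Coq10b, with the motif in capitals. With no match in any of the 11 windows, the other motifs could not overlap with it.
Coq4: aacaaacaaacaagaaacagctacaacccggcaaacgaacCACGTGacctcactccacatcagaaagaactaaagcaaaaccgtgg
Coq10b: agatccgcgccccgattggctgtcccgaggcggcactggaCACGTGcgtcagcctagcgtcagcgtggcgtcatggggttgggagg
These 2 genes, which share the motif, lay on opposite sides of 0 in the comparison of the genotypes under vehicle (0.45 for Coq4 and -0.41 for Coq10b).

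Coq5 encodes the C-methyltransferase that adds a methyl group to the ring of the coenzyme Q precursor. Its log2 values were 10.62 with vehicle and 9.65 with metformin in WT, and 7.91 and 10.04 in KO. The KO vehicle array thus stood apart on the low side, and the other arrays lay within 0.97 of each other. Under vehicle, Coq5 was 6.56-fold lower in KO than in WT (-2.71), which placed it 9th from the lowest of 11090 genes. With metformin in KO it was 4.40-fold higher than with vehicle (2.14), the 16th highest difference of all genes. Both of these differences use the same KO vehicle array and do not stand as separate results.

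The comparison that uses neither vehicle array gave a small difference for Coq5. Under metformin, Coq5 was 0.40 higher in KO than in WT, and 90.4% of all genes lay below that value. In WT, where the KO vehicle array plays no part, Coq5 was lower with metformin by a difference of -0.97, just short of 2-fold, with 1.1% of genes lower still. The response to metformin thus had opposite signs in the 2 genotypes. The WT difference shares the WT vehicle array with the genotype difference under vehicle, so those 2 are not separate results either. That array was the highest for Coq5 and for 46.2% of all genes. The KO response minus the WT response was 3.11 for Coq5, the 7th highest of all genes.

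**Figure D1:**
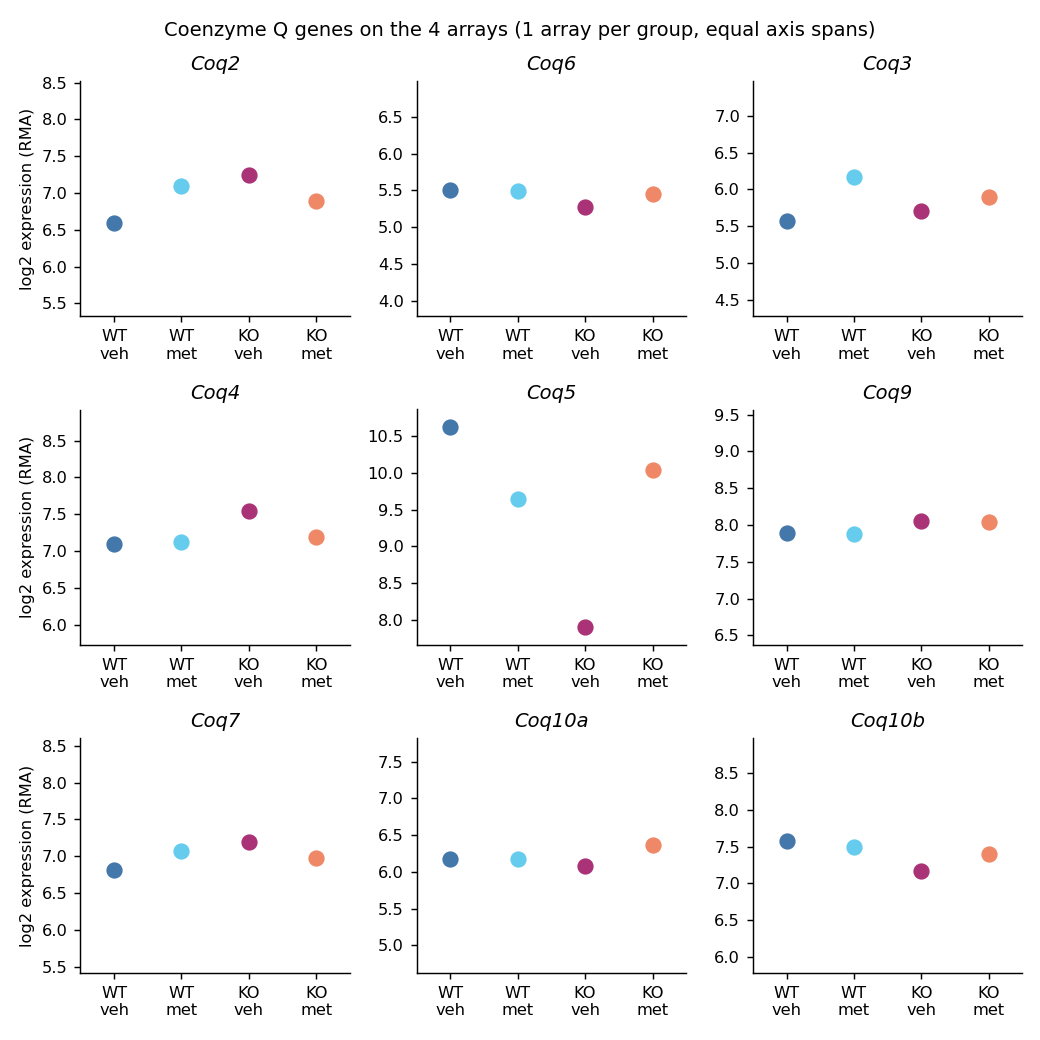
Each panel plots the log2 expression value of a coenzyme Q gene (vertical axis, RMA values) on the 4 arrays, WT and KO with vehicle (veh) or metformin (met), with 1 point per array and the same axis span in every panel. Coq5 runs from 7.91 on the KO vehicle array to 10.62 on the WT vehicle array, while each of the other 8 genes stays within 0.66.

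The other 8 members varied far less over the 4 arrays than Coq5. The distance from a gene's highest to its lowest array was 2.71 for Coq5, a span larger than that of 99.8% of genes. Among the others it went from 0.17 (Coq9, larger than 4.99% of genes) to 0.66 (Coq2, larger than 65.3% of genes). Of the 9 genes, 1 was at least 2-fold lower in KO under vehicle and none was 2-fold higher, against 8.12% and 2.31% of all genes. With metformin in KO, 1 was at least 2-fold higher and none lower, against 2.44% and 0.613% of all genes, and the member past 2-fold was Coq5 in both comparisons. No member reached 2-fold with metformin in WT, where 0.775% of genes were higher and 0.929% lower, nor between the genotypes under metformin, where 0.532% of genes were higher and 0.388% lower. For the KO response minus the WT response, 1 member was past 2-fold, again Coq5, which was higher, against 11.2% of genes higher and 3.61% lower. Because the genes were chosen with these contrasts in view, nothing is read from the shares.

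Coq2 encodes the prenyltransferase that joins the ring to the isoprenoid tail, the first step common to all later intermediates. Its values were 6.59 with vehicle and 7.09 with metformin in WT, and 7.25 and 6.89 in KO. The WT vehicle array was the lowest and the KO vehicle array the highest, the reverse of Coq5. Under vehicle, KO was 0.66 above WT, and 94.1% of all genes lay below it. Metformin went with a value higher by 0.50 in WT and with a difference of -0.36 in KO. The KO response minus the WT response was -0.86, with 5.04% of genes below. That difference was past 2-fold with cyclic loess, with quantile normalization and with the trend on gene length removed, down to -1.17. Of all genes, 5%, 5% and 4% were at least 2-fold lower under these settings.

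Coq6, Coq3 and Coq4 modify the ring in the same stretch of the pathway as Coq5. Coq6, a flavin-dependent hydroxylase that puts an oxygen on the ring, had 5.50 with vehicle and 5.49 with metformin in WT, and 5.27 and 5.45 in KO. Its 4 values lay within 0.23 of each other, with the KO vehicle array lowest. Coq3, the O-methyltransferase of the pathway, had 5.57, 6.17, 5.70 and 5.90 in the same order of arrays. Coq3 was highest on the WT metformin array, and its difference of 0.60 from WT vehicle was the highest of the 9 genes in that comparison (1.51-fold). Its difference of the genotypes under vehicle was 0.13, and it turned to -0.02 with each array centred on its median.

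Coq4, a protein that is needed for the assembly and the ring chemistry of the complex, had 7.10 with vehicle and 7.13 with metformin in WT, and 7.55 and 7.20 in KO. The KO vehicle array was the high one, and the other 3 arrays lay between 7.10 and 7.20. Under vehicle Coq4 was 0.45 higher in KO, and with metformin in KO the difference was -0.35.

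Coq7 and Coq9 act as a pair, in which Coq9 binds the lipid and presents it to the hydroxylase Coq7. Coq7 had 6.82 with vehicle and 7.07 with metformin in WT, and 7.20 and 6.98 in KO, and the arrays ranked as they did for Coq2. Under vehicle its difference of KO from WT was 0.38, and its responses to metformin were 0.26 in WT and -0.22 in KO. Coq9 had 7.89, 7.88, 8.06 and 8.04 in the same order of arrays. The KO arrays of Coq9 were both above the WT arrays, by 0.17 under vehicle and 0.16 under metformin, and metformin itself went with differences of -0.00 in WT and -0.01 in KO.

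Coq10a and Coq10b encode lipid-binding proteins that hold coenzyme Q and are needed for its use in respiration. Coq10a had 6.18 with vehicle and 6.18 with metformin in WT, and 6.08 and 6.36 in KO. Coq10b had 7.58, 7.50, 7.17 and 7.40 on the same arrays. Both were lowest on the KO vehicle array, as was Coq5, but under vehicle their differences of KO from WT were -0.10 and -0.41 against -2.71 for Coq5. The sign for Coq10a turned with cyclic loess, to 0.02, and with quantile normalization.

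**Figure D2:**
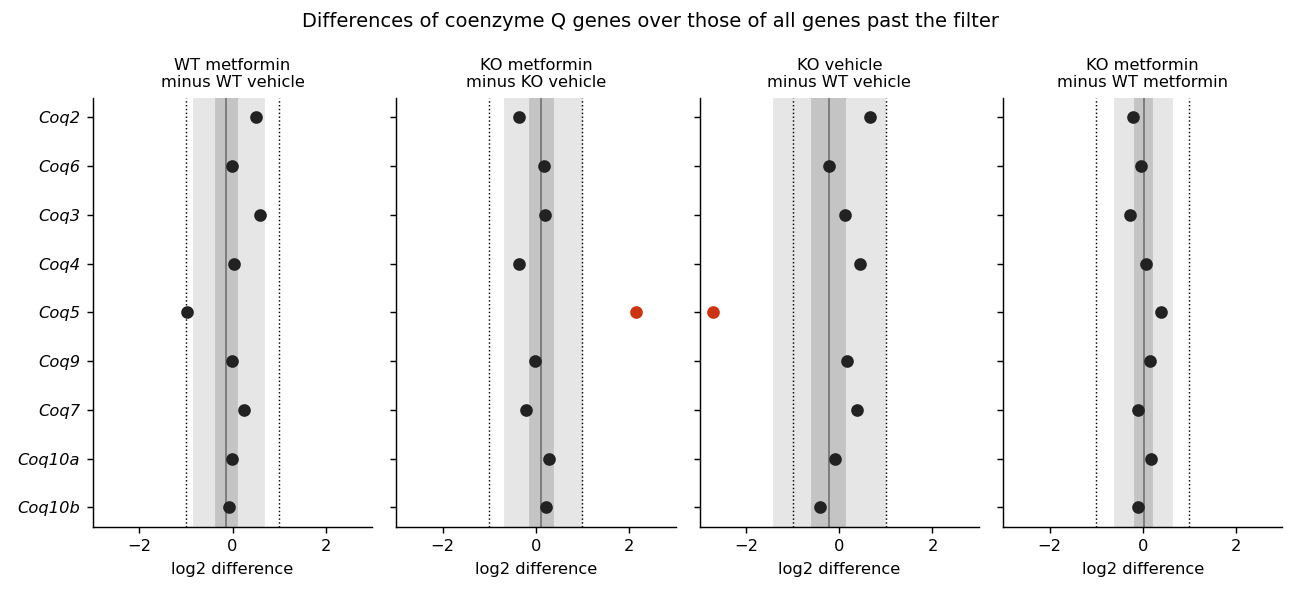
Each panel shows the log2 difference (horizontal axis) of the 9 coenzyme Q genes in a comparison of 2 arrays, in red where it is 2-fold or more. The light and dark bands hold the central 95% and the middle quartiles of all 11090 genes, the grey line is their median, and dotted lines mark 2-fold; Coq5 lies outside the light band in 3 panels, at -0.97, 2.14 and -2.71, and the other 8 genes lie inside it in all 4.

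By direction, the 9 genes fell into more than a single group. The KO vehicle array was the highest for 4 of them (Coq2, Coq4, Coq7 and Coq9) and the lowest for 4 others (Coq5, Coq6, Coq10a and Coq10b). Over all genes it was the highest for 19.7% and the lowest for 44.3%. The order seen for Coq5, with WT vehicle above KO metformin, then WT metformin, then KO vehicle, was shared by 1691 genes (15.2%), so the order is common while the size is not. Only 9 genes, Coq5 included, had a difference under vehicle as low as that of Coq5, 16 had a KO response as high, and 4 had both. Of all genes, 210 were at least 2-fold lower in KO under vehicle and at least 2-fold higher with metformin in KO.

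The median of the 9 genes was -0.00 with metformin in WT (-0.14 over all genes), 0.18 with metformin in KO (0.11), 0.13 for KO against WT under vehicle (-0.22) and -0.04 under metformin (0.02). Without Coq5, the medians of the other 8 were 0.01, 0.08, 0.15 and -0.07. Above 0 lay 4, 5, 5 and 4 of the 9 genes in these comparisons, and above the median of all genes 8, 5, 6 and 4. With metformin in WT the count above 0 depended on the scaling, at 3 after centring, 7 with cyclic loess and 8 with quantile normalization, while 8 lay above the median of all genes under each of these, with Coq5 the exception. The responses of the 2 genotypes had opposite signs for 7 of the 9 genes, against 65.9% of all genes. Of those 7, 4 were lower with metformin in WT and higher in KO (46.6% of all genes), among them Coq5, and 3 were higher in WT and lower in KO (19.4% of all genes), namely Coq2, Coq4 and Coq7. The WT differences of Coq4, Coq6, Coq10a and Coq10b were near 0, and the sign of each turned under at least 1 alternative.

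**Figure D3:**
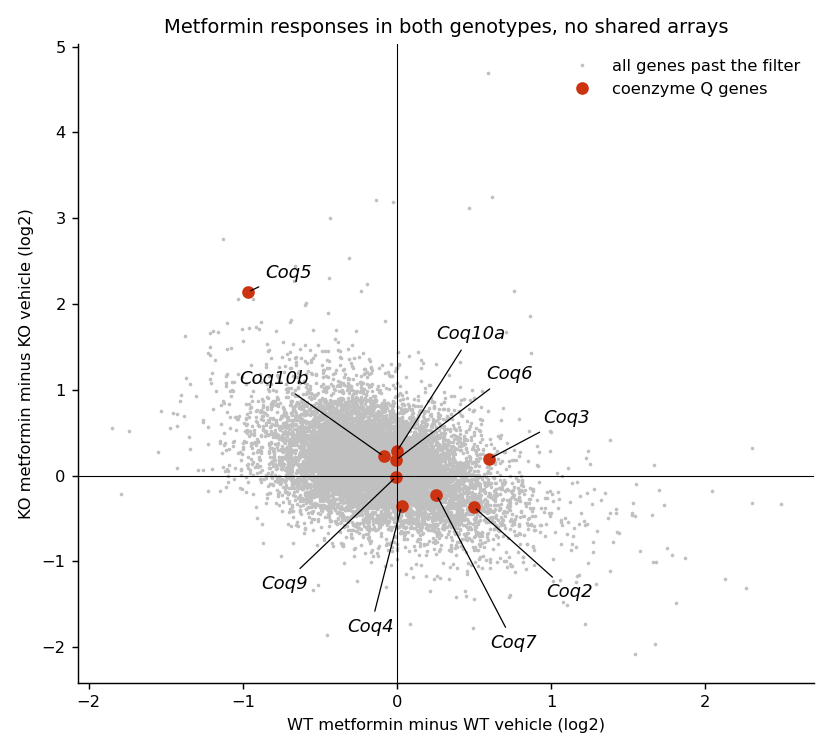
The log2 difference with metformin in KO (vertical axis) is plotted against that in WT (horizontal axis) for 11090 genes in grey and the 9 coenzyme Q genes in red; the axes share no array. Coq5 lies at -0.97 and 2.14, outside the cloud that holds the other 8 genes.

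The remaining genes of coenzyme Q biology were taken from a list of 11, of which 8 were measured and 6 passed the filter. None of the 6 was 2-fold higher or lower in any comparison of 2 arrays. Of all genes, 1.7% passed 2-fold in either direction with metformin in WT and 3.06% with metformin in KO. Between the genotypes, 10.4% did under vehicle and 0.92% under metformin. Under vehicle the median difference of the 6 genes, KO from WT, was -0.29. Pdss2, the other subunit of the enzyme that makes the isoprenoid tail, had 5.85 with vehicle and 5.36 with metformin in WT, and 5.38 and 5.62 in KO. Coq8a and Coq8b, atypical kinases that help hold the complex together, differed by -0.12 and -0.76 under vehicle. Pptc7, a mitochondrial phosphatase whose relative in yeast acts on Coq7, had the lowest difference of the list (-0.81), and Stard7, a lipid carrier, the highest (0.61). The KO response minus the WT response of Pptc7 was 1.01.

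Upstream of the tail, 8 of 11 listed genes of the mevalonate pathway and its branches were measured, and all 8 passed the filter. Under vehicle 1 of the 8 was at least 2-fold lower in KO and none higher, against 8.12% and 2.31% of all genes, and their median of -0.21 was near that of all genes (-0.22). That gene was Ggps1, which makes geranylgeranyl diphosphate, a chain used both for protein prenylation and as a building block of longer tails. Ggps1 had 7.94 with vehicle and 7.26 with metformin in WT, and 6.35 and 6.55 in KO. Its value was low on both KO arrays, unlike Coq5, and under metformin KO differed from WT by -0.71. Fdft1, the first enzyme of the sterol branch, had -0.61 under vehicle, while Fdps (0.47) and Mvd (0.43) were the highest.

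Downstream, the genes of the routes that pass electrons to coenzyme Q and the complex that takes them from it were compared on the same arrays. The 12 listed genes for enzymes that reduce coenzyme Q or feed those enzymes included the 4 subunits of complex II. In a comparison of 2 arrays, 0.92% to 10.4% of all genes passed 2-fold in either direction, and none of the 12 did. Their median under vehicle was 0.08, from Chdh (-0.75), a choline dehydrogenase, to Etfb (0.62), a subunit of the electron transfer flavoprotein, which hands electrons to the coenzyme Q reductase Etfdh. Of 8 measured subunits of complex III, 2 were at least 2-fold higher in KO under vehicle, Uqcrh (1.61) and Uqcr11, and none was lower (median 0.27), against 2.31% and 8.12% of all genes. The core subunit Uqcrc2 was the lowest (-0.62).

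Coq5 was also set beside other methyltransferases of mitochondria, since it shares their methyl donor. Of 14 genes on that list, which includes the carrier of the methyl donor Slc25a26, 13 were measured and 11 passed the filter. In a comparison of 2 arrays, 0.92% to 10.4% of all genes passed 2-fold in either direction, and none of the 11 did. Their median under vehicle was -0.38, and the lowest were Mrm3 and Trmt5 (both -0.77), which modify mitochondrial ribosomal and transfer RNA. All 11 lay above Coq5 (-2.71) in that comparison, where Coq5 was 9th from the lowest of 11090 genes. Almost any list would lie above it, so nothing is read from this.

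Of 8 regulators of mitochondrial genes, none was 2-fold higher or lower in any comparison of 2 arrays, against 0.92% to 10.4% of all genes. The coactivator Ppargc1a had the lowest difference under vehicle (-0.80) and the nuclear receptor Esrra the highest (0.87), around a median of -0.31. Among 14 measured genes that follow mitochondrial mass, 1 was at least 2-fold lower under vehicle (Cs, citrate synthase, -1.08) and 1 higher (Cox4i1, a subunit of cytochrome oxidase, 1.40), where 8.12% of all genes were lower and 2.31% higher.

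**Figure D4:**
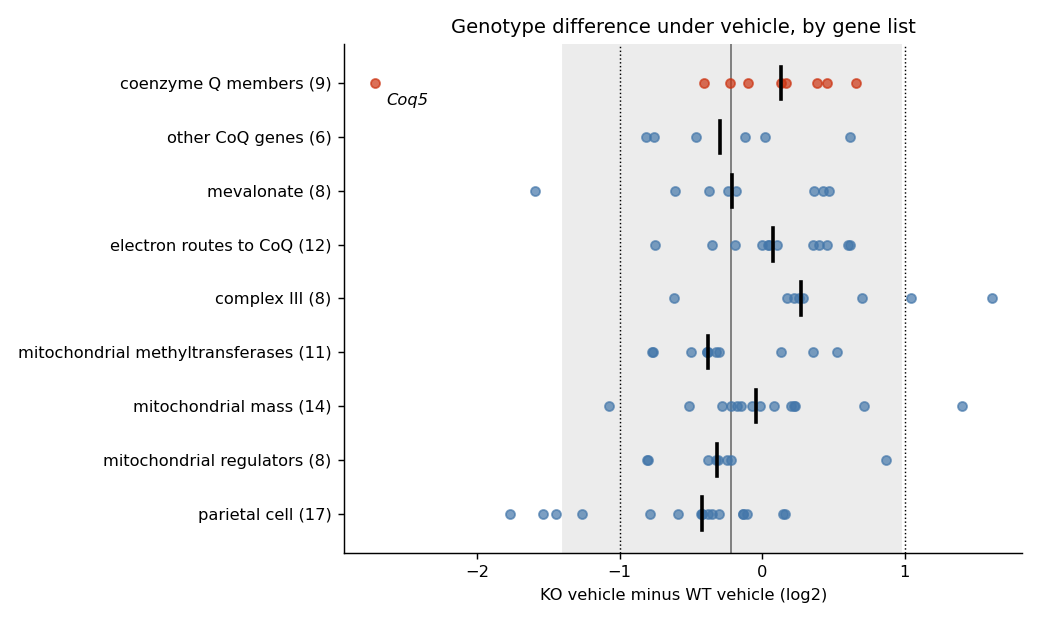
Each point is the log2 difference of KO vehicle from WT vehicle (horizontal axis) of a gene past the filter, by list, with the number of genes in brackets; black bars are list medians, the grey band holds the central 95% of all genes, the grey line is their median and dotted lines mark 2-fold. Coq5 at -2.71, chosen with this value known, is the lowest point of all lists shown, and the median of the coenzyme Q genes is 0.13.

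The targeted genes and markers of cell types were checked on the same arrays. Prkaa1 and Prkaa2 were lower on the KO vehicle array than on the WT vehicle array (-1.28 and -1.71), and less so under metformin (-0.24 and -0.50). All 17 parietal cell genes passed the filter, and Atp4a and Atp4b, which encode the proton pump, were at 12.80 or higher on every array. The summed level of the parietal list, as log2 of the sum of linear values, was 15.24 with vehicle and 14.96 with metformin in WT, and 14.79 and 15.01 in KO. This is the same order of arrays as for Coq5, over a smaller span, and its part in the differences of Coq5 was not tested. Under vehicle 4 of the 17 were at least 2-fold lower in KO (median -0.42), against 8.12% of all genes (median -0.22). In whole corpus, fewer cells of a type and less RNA per cell cannot be told apart. Other cell types moved on the same arrays to differing degrees. From WT vehicle to KO vehicle the summed level went from 15.01 to 14.97 for chief cells and from 15.43 to 15.31 for surface pit cells. For mucous neck cells it went from 12.86 to 13.08, though 2 of those 6 genes were at least 2-fold lower, against 8.12% of all genes. The summed level of 12 smooth muscle genes was 13.92 in WT vehicle and 13.02 in KO vehicle, and 5 of them were at least 2-fold lower in KO (median -0.89), against 8.12% of all genes. All 7 endothelial genes were below 0 in that comparison (median -0.72, summed level 10.41 and 9.65), where the median of all genes was -0.22. Of the 7, 1 was at least 2-fold lower, against 8.12% of all genes. Among 4 plasma cell genes that passed the filter, Ighm (3.75) and Jchain (3.07) were over 2-fold higher there, against 2.31% of all genes. Derl3 (-0.49) and Sdc1 (-0.23) were below 0. Jchain was at 3.94 and 3.19 on the WT arrays and met the filter only because KO was high. Among 4 mast cell genes, Mcpt2 (3.39) and Tpsb2 were over 2-fold higher, against 2.31% of all genes. Kit (-1.61) was over 2-fold lower, against 8.12%, and Cpa3 was at 0.63. Mcpt2 was under the filter value on both WT arrays (3.86 and 4.98) and met the filter through the KO arrays. With metformin in KO, 5 of the 6 squamous genes that passed the filter were over 2-fold higher, led by Krtdap (4.69), against 2.44% of all genes. Some of them, Krtdap included, met the filter only because KO metformin was high, and the summed level of all 11 measured went from 9.96 to 11.82. The part of these cell types in the differences of Coq5 was not tested. The summed mitochondrial list stayed between 13.61 and 13.74. Small nucleolar RNA genes, 59 in all, moved the other way, with medians of 1.13 for KO against WT under vehicle, 1.13 with metformin in WT and -0.56 with metformin in KO, and their part was not tested. With the trend on gene length removed from each array, the Coq5 differences were -2.43 under vehicle and 1.96 with metformin in KO.

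The 5 genes whose 4 values, centred on their own mean, lay nearest to those of Coq5 were Mocs1, Dapp1, Vps33b, Sike1 and Mr1. The measure was the Euclidean distance over the 4 arrays, from 0.20 (Mocs1) to 0.31 (Mr1), among all genes past the filter. Mocs1, a gene of molybdenum cofactor synthesis, had 8.84 with vehicle and 7.80 with metformin in WT, and 6.31 and 8.37 in KO. Under vehicle the 5 genes differed by -2.75 (Mr1) to -2.37 (Sike1), and with metformin in KO by 1.78 (Mr1) to 2.26 (Dapp1). They were picked for this likeness, so it is not a finding.

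The genes that lie next to Coq5 on the chromosome in assembly GRCm38.p6 did not all follow it. Of the 3 measured genes on each side (Cabp1, Pop5 and Rnf10, then Dynll1, Srsf9 and Gatc), 5 passed the filter and Cabp1 did not. Gatc, which encodes a subunit of a mitochondrial amidotransferase, had 10.39 with vehicle and 9.90 with metformin in WT, and 9.17 and 10.46 in KO. Gatc was lower by 2-fold or more in KO under vehicle (-1.22) and higher by 2-fold or more with metformin in KO (1.29), the same directions as Coq5 at a smaller size. Rnf10, the nearest gene on the other side, had -0.53 and 0.78. Dynll1, the nearest neighbour on the side of Gatc, had 0.45 and -0.24, Srsf9 had 0.31 and -0.25, and Pop5 had 0.65 and -0.55, all opposite to Coq5.

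**Figure D5:**
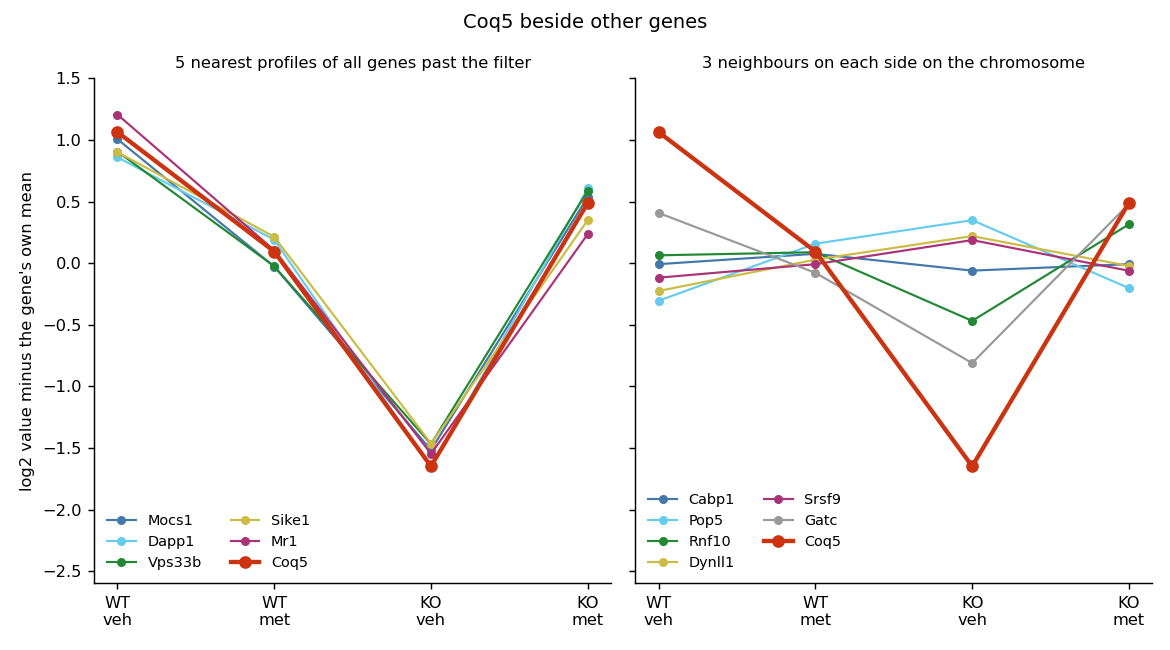
Lines give the log2 value minus the gene's own mean (vertical axis) on the 4 arrays for Coq5 in red, beside the 5 genes with the nearest profiles (left) and the 3 measured neighbours on each side on the chromosome (right). The 5 genes on the left, chosen for likeness, share the low KO vehicle value, while on the right Gatc and Rnf10 dip on that array and Pop5, Dynll1 and Srsf9 are highest there.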

How the data were processed

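The deposited values are log2 expression values on 41345 probe sets of an Affymetrix array, which the authors made by robust multi-array averaging (RMA) with Partek, per the submitters' processing notes; the sources used here give no versions, settings or background levels. The values themselves, and not a label, show the log2 scale. The platform annotation pairs 23521 probe sets with 1 gene, 1814 with several and leaves 16010 without a name here; current symbols came from RefSeq (GRCm38.p6) by gene identifier, which matched for 23328. Only single-gene probe sets were used, the highest-mean probe set standing for a gene, which left 22180 genes. Precision is limited by the number of arrays.

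Differences were computed in Python 3.11.15 (numpy 2.4.6, pandas 2.3.3) with no test; the calculation was tested on simulated data with known shifts. Named genes are all members, the 5 genes with profiles nearest to Coq5, 3 measured neighbours on each side, the targeted genes, and up to 2 highest and 2 lowest genes of each list; Pdss2, Coq8a, Coq8b and the parietal pump genes, among others, were named after their values were seen. The members and lists were chosen with earlier results of these data known. Alternatives were cyclic loess and quantile normalization (limma 3.58.1 in R 4.3.3), median centring of arrays, averaging all probe sets of a gene, removal of the trend on gene length (lowess, span 0.3, statsmodels 0.14.6, protein-coding genes after cyclic loess), a filter at the 75th percentile or none, and a 1.5-fold rule. Planned comparisons of protein sequences were not made.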

Additional observations from a re-analysis of the deposited data

Results flagged for a closer look

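For 7 of the 9 genes the metformin response had opposite signs in the 2 genotypes, with 1 array behind each value, and the difference was not tested. The KO response minus the WT response was 3.11 for Coq5, -0.86 for Coq2, -0.48 for Coq7, -0.38 for Coq4, 0.31 for Coq10b, 0.28 for Coq10a and 0.19 for Coq6. Of all genes, 65.9% had opposite signs, so the sign alone sets no member apart. The WT differences of Coq4 (0.03), Coq6 (-0.01), Coq10a (-0.00) and Coq10b (-0.08) were near 0 and turned sign under at least 1 alternative. The KO response minus the WT response of Coq10b was -0.03 with the trend on gene length removed.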

How the results depend on the processing

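Each group held 1 array, so none could be left out. No paired analysis was possible because each group has 1 array. Without replicates, a difference or median was taken as moved when it changed by 1.2-fold or more, or when it crossed 2-fold. A count was taken as moved when it changed by more than 1.5-fold, or to or from none. The difference of Coq5 from WT in KO under vehicle lay between -2.86 and -2.43 over the 6 ways of making the values, and that with metformin in KO between 1.96 and 2.22. Both stayed past 2-fold. With the gene length trend removed, Coq5 moved to -2.43 under vehicle and to 2.82 for the KO response minus the WT response. With each array centred on its median, Coq5 passed 2-fold with metformin in WT (-1.04), which makes 1 member past it. After that centring 1.42% of all genes were at least 2-fold lower and 0.631% higher, around a median of -0.21. The median of the KO response minus the WT response was -0.01 as deposited. It was -0.29 with cyclic loess, -0.28 with quantile normalization and -0.33 with the length trend removed. Under each of these 3 alternatives 2 members were past 2-fold, Coq2 beside Coq5. Of all genes, 11.9%, 12.2% and 9.91% were past 2-fold in either direction there. The cause of these shifts was not tested. The 1.5-fold rule gave 2 members with metformin in WT, 2 for KO against WT under vehicle and 2 for the KO response minus the WT response, where 12.6%, 31.9% and 38.2% of all genes passed it. Of 90 such values under an alternative, 77 stayed in place, as did 184 of 200 for the other members. Both tallies, and the 6 ways above, include the averaging of probe sets. That step could not change a member, since each had 1 probe set. The counts with no filter were likewise fixed, since all 9 genes already passed. With the filter at the 75th percentile, 6 of the 9 genes passed. Scaling moved the median of all genes under vehicle from -0.22 to -0.37 after centring and -0.07 after cyclic loess, and the shares at least 2-fold lower and higher from 8.12% and 2.31% to 12.3% and 1.43%, and to 5.07% and 3.33%.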
